A study of Homo sapiens with 21 samples.

Results

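Matrix metalloproteases (MMPs), ADAMTS proteases and tissue inhibitors of metalloproteases (TIMPs) were described in 21 untreated human cancer cell lines. The members were all listed genes whose symbol is MMP or ADAMTS followed by a number, with a letter in MMP23A and MMP23B, or TIMP1 to TIMP4, without regard to their values. That gave 47 genes in each set of arrays, 24 MMP, 19 ADAMTS and 4 TIMP genes, of 37878 names listed for the hepatocellular carcinoma (HCC) lines and 34601 for the lung and pancreatic lines. Each line was grown under standard conditions and read once on an Illumina BeadChip expression array. Of the lines, 11 came from HCC, namely Hep3B, HLF, Huh-1, JHH-4, JHH-6, PLC/PRF/5, SK-HEP-1, SNU-423, SNU-475, SNU-739 and SNU-886. The 5 lung lines were Calu-1, Calu-3, Malme-3M, NCI-H1299 and NCI-H596, and the 5 pancreatic lines were AsPC-1, BxPC-3, Capan-1, Capan-2 and MIA-PaCa-2. The study was set up around the dependence of growth on LSD1, a histone demethylase, but the labels do not say which lines depend on it, and the only comparison made here is of lung with pancreatic lines.

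MMPs are zinc endopeptidases that cut collagens, laminins, proteoglycans and many cell surface proteins. They are made as latent proenzymes, and some are secreted while others stay anchored in the membrane. ADAMTS proteases are secreted relatives with thrombospondin-type repeats that cut procollagens, large proteoglycans and von Willebrand factor. TIMPs bind the active site of MMPs, and TIMP3 also inhibits several ADAM and ADAMTS proteases. In liver and pancreas, stellate cells and other stromal cells are a main source of MMP2 and TIMP1, and cultures of tumour lines hold no such stroma.

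The HCC lines were read on another array design than the other 10 lines, so both sets were normalized apart and no level of one set is compared with a level of the other. Levels are background-corrected, quantile-normalized intensities on the log2 scale. The p in parentheses after a level is the detection p deposited with it, which compares the signal with the negative controls of that array and is printed as listed, 0 included. A gene was called detected where it lay under 0.05. An undetected gene was not always dim. ADAM19, which is not a member, was detected in 0 of the 10 lung and pancreatic lines, at levels of 6.76 to 10.51. BSG, no member either, was detected in 7 of these lines although its lowest level was 11.48. In HCC lines BSG was detected in 9 of 11, with a lowest level of 10.18. The cause was not tested, and a missed detection is not read as absence of signal. Levels of different genes come from different probes and are not ranked against each other. In RNA of a whole culture, fewer expressing cells and less RNA per cell cannot be told apart.

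Several arrays stood apart in their signals or markers. In Hep3B 24.9% of all listed genes were detected, against 32.6% to 35.1% in the other HCC lines, and its strongest signals stood closer to background, with a 95th percentile 4.78 times the control mean against 10.1 to 26.4 times. Hep3B also had 0 of 7 epithelial markers detected, against 3 to 6 in the other HCC lines. All 6 mesenchymal markers were detected in it, against 4 to 6 in the others. All 9 hepatocyte markers, such as ALB and APOA1, were detected in Huh-1 and PLC/PRF/5, 0 in HLF and SNU-739, and 1 to 5 in the other HCC lines, with 4 in Hep3B. The lung epithelial list had 0 or 1 of 5 genes detected in each lung line. Malme-3M, known as a line from a melanoma, had 1 of 6 melanocyte markers (PMEL) and all 7 epithelial markers detected. PMEL was also detected in NCI-H1299, Calu-1, AsPC-1, Capan-2 and Capan-1, and in the HCC lines JHH-4, JHH-6, Hep3B and PLC/PRF/5. The keratins KRT8, KRT18 and KRT19 were not detected in Capan-2. CDH1 was not detected in Calu-3, nor in NCI-H1299, Calu-1 or MIA-PaCa-2. The part of these differences in the results below was not tested.

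In the HCC lines 33 of the 47 genes (70.2%) were detected at least once, where 59.6% of all listed genes were. Only MMP15, TIMP1 and TIMP2 were detected in all 11 lines, 6.38% of the members against 13.1% of all listed genes. In the lung and pancreatic lines 26 members (55.3%) were detected at least once, against 61% of all genes, and TIMP1 alone was detected in all 10, 2.13% against 28.2%. In both sets of arrays 21 members were detected. Another 12 were detected on the HCC arrays alone, among them MMP2, MMP12, MMP19, ADAMTS4, ADAMTS5 and ADAMTS13. The 5 detected in lung or pancreatic lines alone were MMP13, ADAMTS2, ADAMTS7, ADAMTS8 and ADAMTS15. In such differences, tissue and array design cannot be told apart. How all listed genes split between the sets was not counted, so this split is not read as a trait of the members. The 9 members detected in no line were MMP8, MMP20, MMP21, MMP26, MMP27, ADAMTS10, ADAMTS12, ADAMTS14 and ADAMTS18.

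**Figure D1:**
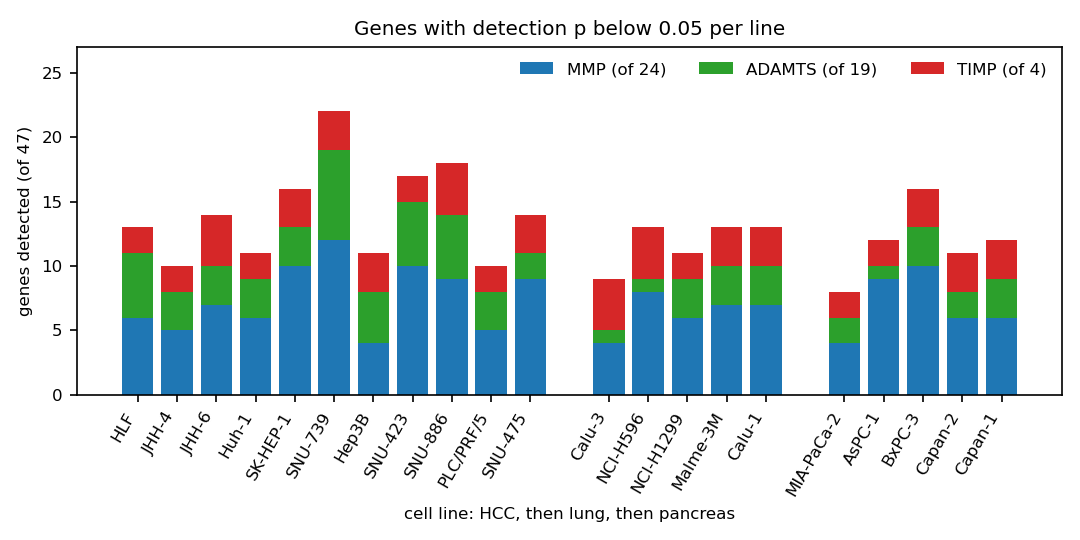
Number of the 47 genes with a detection p under 0.05 in each of the 21 lines (y axis), stacked by MMP, ADAMTS and TIMP genes, with lines grouped by tissue on the x axis. SNU-739 had 22 detected genes, JHH-4 and PLC/PRF/5 had 10 each, and the lung and pancreatic lines lay between 8 and 16.

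The share of the 47 members detected in a line was 21.3% to 46.8% in HCC lines, where 24.9% to 35.1% of all genes were, and 17.0% to 34.0% in lung and pancreatic lines, where 40.7% to 43.7% of all genes were. The count was highest in SNU-739, with 22 genes detected, followed by 18 in SNU-886, 17 in SNU-423 and 16 in SK-HEP-1. It was lowest among HCC lines in JHH-4 and PLC/PRF/5, with 10 each, and Huh-1 and Hep3B had 11. The lung lines had 9 to 13 and the pancreatic lines 8 in MIA-PaCa-2 to 16 in BxPC-3. SNU-739 was the brightest line, or the only detected one, for several genes that were otherwise dim, among them MMP12, MMP10, ADAMTS3, ADAMTS5, ADAMTS16 and ADAMTS20. ADAMTS5, a protease of aggrecan, reached 7.18 (p 0) there and was detected in no other line.

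Many members differed strongly between lines. Of the 33 detected in HCC lines, 14 (42.4%) had a range of at least 3 log2 units, against 30.8% of all genes detected in these lines. Of the 26 detected in lung or pancreatic lines, 14 (53.8%) did, against 22% of all. With no background correction, and in the authors' deposited processed values, these counts were 8 and 7, again above the shares of all genes (24.2% against 13.0% in HCC lines and 26.9% against 11.3% in the others, with no correction). The median range of detected members in HCC lines was 2.57 log2 beside 2.18 for all detected genes, but with no background correction 1.17 beside 1.27, and 1.12 beside 1.26 in the deposited processed values. Without Hep3B, 14 of 32 members (43.8%) and 17.0% of all genes reached that range.

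**Figure D2:**
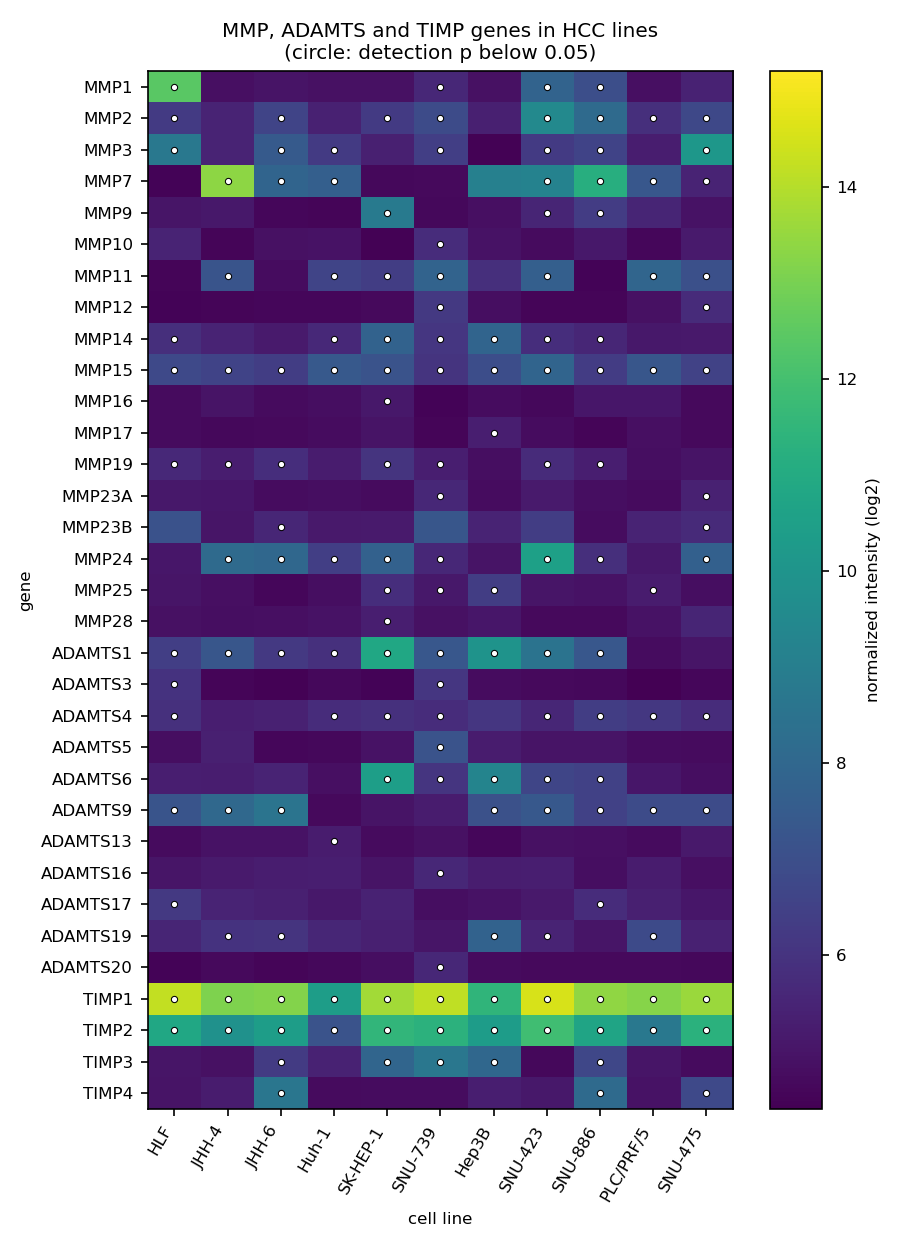
Normalized intensity (log2, colour scale) of the 33 genes detected in at least 1 HCC line, with genes as rows, the 11 lines as columns and a circle where the detection p was under 0.05. TIMP1 and TIMP2 were detected throughout, while MMP1, MMP7, MMP9, ADAMTS1 and ADAMTS6 were detected in 4, 7, 3, 9 and 5 lines, in that order.

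MMP7, or matrilysin, is a small secreted protease of epithelial cells without the hemopexin domain of most MMPs, and it had the widest range of all members in both sets. In HCC lines it was highest in JHH-4 at 13.38 (p 0) and SNU-886 at 11.18 (p 0), had a median of 7.69, and was lowest in HLF at 4.52 (p 0.94). It was detected in 7 HCC lines and not in HLF, SK-HEP-1, SNU-739 or Hep3B. In Hep3B its level was 9.09 (p 0.2), bright for an undetected gene. In the lung lines MMP7 stood at 4.85 (p 0.89) in Calu-3, 9.57 (p 0) in NCI-H596, 4.94 (p 0.8) in NCI-H1299, 5.26 (p 0.31) in Malme-3M and 6.15 (p 0) in Calu-1. In the pancreatic lines it stood at 4.84 (p 0.88) in MIA-PaCa-2, 14.73 (p 0) in AsPC-1, 12.10 (p 0) in BxPC-3, 4.79 (p 0.92) in Capan-2 and 15.02 (p 0) in Capan-1. AsPC-1, BxPC-3 and Capan-1 thus lay above every lung line, while MIA-PaCa-2 and Capan-2 were undetected. The 4 lung or pancreatic lines with MMP7 above 9 had 6 or 7 of the 7 epithelial markers detected, MIA-PaCa-2 had 4 and Capan-2 had 3, while Malme-3M had all 7 with MMP7 undetected; the part of this in the level was not tested.

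MMP7 lies at one end of a run of MMP genes on chromosome 11, which the RefSeq annotation orders as MMP7, MMP20, MMP27, MMP8, MMP10, MMP1, MMP3, MMP12 and MMP13, with no other protein-coding gene in between. Promoter windows were at hand for 27 members. They are shown for MMP7 and MMP10 and for the inhibitors TIMP1 and TIMP3. MMP7 was detected in 7 of the 11 HCC lines and 5 of the other 10, and MMP10 in 1 and 5. TIMP1 was detected in all lines, and TIMP3 in 5 HCC lines and 4 of the others. Each stretch is the 150 bases before the annotated start on the gene's strand, read 5′ to 3′ from RefSeq on GRCh38.p14. They lie at chr11:102530748-102530897 (minus strand), chr11:102780629-102780778 (minus strand), chrX:47582286-47582435 (plus strand) and chr22:32801555-32801704 (plus strand), in the same order. Capitals mark TGAGTCA or TGACTCA, the AP-1 motif as read on either strand, and TATAAA on the gene's strand.
MMP7: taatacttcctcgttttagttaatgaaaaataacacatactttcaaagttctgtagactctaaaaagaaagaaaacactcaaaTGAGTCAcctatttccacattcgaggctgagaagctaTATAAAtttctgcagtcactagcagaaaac
MMP10: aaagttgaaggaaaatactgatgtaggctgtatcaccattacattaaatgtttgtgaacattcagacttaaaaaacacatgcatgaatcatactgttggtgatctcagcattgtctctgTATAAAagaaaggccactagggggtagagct
TIMP1: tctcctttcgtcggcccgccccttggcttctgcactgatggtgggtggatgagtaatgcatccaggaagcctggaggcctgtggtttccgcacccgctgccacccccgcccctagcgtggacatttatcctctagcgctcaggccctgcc
TIMP3: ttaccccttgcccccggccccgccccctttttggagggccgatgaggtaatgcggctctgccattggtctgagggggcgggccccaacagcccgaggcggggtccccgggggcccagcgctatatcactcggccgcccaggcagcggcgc

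Both MMP windows hold TATAAA close to the start, beginning at base -30 in MMP7 and -31 in MMP10, and MMP7 also holds the AP-1 motif at -67. The 150 bases hold 2 CpG in MMP7 and 0 in MMP10, with 32.7% and 36.7% G or C, against 8 CpG and 63.3% in TIMP1 and 13 CpG and 72.7% in TIMP3. Over the 250 bases before the start, TATAAA was found in 6 of the 27 members (MMP7, MMP8, MMP10, MMP20, MMP21 and MMP26) and in 6.80% of 35116 RefSeq windows. The AP-1 motif was found in 1 of the 27 and in 4.20% of all windows. No window was at hand for MMP1, MMP2, MMP3, MMP9, MMP12, MMP13, ADAMTS1 and TIMP2, among others, so these counts do not stand for all members. Of the 6 with TATAAA, 4 (MMP8, MMP20, MMP21 and MMP26) were detected in no line. All 9 members detected in no line were among the 27, and ADAMTS10, ADAMTS12, ADAMTS14, ADAMTS18 and MMP27 held no TATAAA. The match began at -110 in MMP8, -72 in MMP20, -92 in MMP21 and -28 in MMP26. A relation of the motif to detection was not tested. Other MMP windows were rich in CpG and held no TATAAA, with 31 CpG in MMP15, 25 in MMP24 and 22 in MMP11 over 250 bases, so the 4 windows shown do not stand for their families. These matches describe the letters of the windows and nothing about binding in these lines.

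Among the collagenases, which cut the triple helix of fibrillar collagens, MMP1 was detected in the most lines, 4 HCC lines and 6 of the others. In HCC lines it was highest in HLF at 12.42 (p 0), followed by SNU-423 at 7.82 (p 0), SNU-886 at 6.99 (p 0.01) and SNU-739 at 5.60 (p 0.03). The other 7 HCC lines were undetected, with the median at 4.97 and the lowest level in PLC/PRF/5 at 4.85 (p 0.31). HLF thus stood 4.61 log2 units above the next line. In the lung lines MMP1 was 7.06 (p 0.01) in Calu-3, 9.27 (p 0) in NCI-H596, 6.39 (p 0.02) in NCI-H1299, 8.94 (p 0) in Malme-3M and 5.08 (p 0.5) in Calu-1. Pancreatic levels were 5.45 (p 0.24) in MIA-PaCa-2, 7.86 (p 0) in AsPC-1, 12.27 (p 0) in BxPC-3, 5.87 (p 0.07) in Capan-2 and 5.90 (p 0.07) in Capan-1. BxPC-3 was the highest of these 10 lines, and both tissues held detected and undetected lines. MMP13, a collagenase known from cartilage and bone, was detected in Malme-3M alone. Its lung levels were 5.60 (p 0.17) in Calu-3, 5.24 (p 0.36) in NCI-H596, 5.09 (p 0.48) in NCI-H1299, 8.04 (p 0) in Malme-3M and 4.79 (p 0.9) in Calu-1. Its pancreatic levels, all undetected, ran from 4.98 to 5.76. MMP8 was not detected in any line.

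The gelatinases MMP2 and MMP9 cut denatured collagen and basement membrane collagen. MMP2 was detected in 8 HCC lines and in none of the lung or pancreatic lines. It was highest in SNU-423 at 9.50 (p 0), then in SNU-886 at 8.14 (p 0), with a median of 6.25 and the lowest level in Hep3B at 5.36 (p 0.14). MMP9 was detected in 3 HCC lines, SK-HEP-1 at 8.82 (p 0), SNU-886 at 6.33 (p 0.01) and SNU-423 at 5.54 (p 0.04). Its HCC median was 5.03 and its lowest level 4.54 (p 0.82) in Huh-1. Lung levels of MMP9 were 5.46 (p 0.24) in Calu-3, 7.03 (p 0) in NCI-H596, 6.93 (p 0) in NCI-H1299, 5.09 (p 0.49) in Malme-3M and 4.90 (p 0.72) in Calu-1. Pancreatic levels of it were 4.85 (p 0.83) in MIA-PaCa-2, 4.72 (p 0.97) in AsPC-1, 11.84 (p 0) in BxPC-3, 5.42 (p 0.21) in Capan-2 and 12.53 (p 0) in Capan-1. BxPC-3 and Capan-1, the lines with high MMP9, were also among those with high MMP7, whereas AsPC-1 had high MMP7 and no detected MMP9.

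The stromelysins MMP3 and MMP10 cut proteoglycans and activate other proMMPs, while MMP11 is a stromelysin by name that is already active when secreted. MMP3 was detected in 7 HCC lines. It was highest in SNU-475 at 10.11 (p 0), then HLF at 8.74 (p 0) and JHH-6 at 7.45 (p 0), with a median of 6.23 and the lowest level 4.48 (p 0.96) in Hep3B. Outside the HCC lines it was detected in BxPC-3 alone. Its lung levels were 5.41 (p 0.26) in Calu-3, 5.78 (p 0.09) in NCI-H596, 5.29 (p 0.27) in NCI-H1299, 5.63 (p 0.13) in Malme-3M and 5.80 (p 0.08) in Calu-1. Pancreatic lines had 5.68 (p 0.13) in MIA-PaCa-2, 5.42 (p 0.26) in AsPC-1, 8.08 (p 0) in BxPC-3, 5.75 (p 0.09) in Capan-2 and 5.24 (p 0.34) in Capan-1.

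MMP10 was near background in HCC lines, detected in SNU-739 alone at 5.76 (p 0.01). In lung lines it was 5.52 (p 0.21) in Calu-3, 8.50 (p 0) in NCI-H596, 5.81 (p 0.08) in NCI-H1299, 7.90 (p 0) in Malme-3M and 5.23 (p 0.34) in Calu-1. In pancreatic lines it was 5.24 (p 0.37) in MIA-PaCa-2, 7.17 (p 0.01) in AsPC-1, 9.02 (p 0) in BxPC-3, 6.40 (p 0.01) in Capan-2 and 5.97 (p 0.06) in Capan-1. MMP10 and MMP1, next to each other on chromosome 11, had the same 4 lines highest in the same order (BxPC-3, NCI-H596, Malme-3M, AsPC-1). Over the 10 lung and pancreatic lines Pearson's r between them was 0.93 and Spearman's rho 0.88, and r was 0.86 when the 2 lines farthest from the MMP1 median were left out. This was the highest r of 153 pairs of tested members, whose median was 0.11; the points share 1 table and 1 normalization, and no test was made. MMP1 and MMP3, also neighbours, had r of 0.46 over the 11 HCC lines, where the line highest in MMP3, SNU-475, had MMP1 at 5.44 (p 0.0646).

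**Figure D3:**
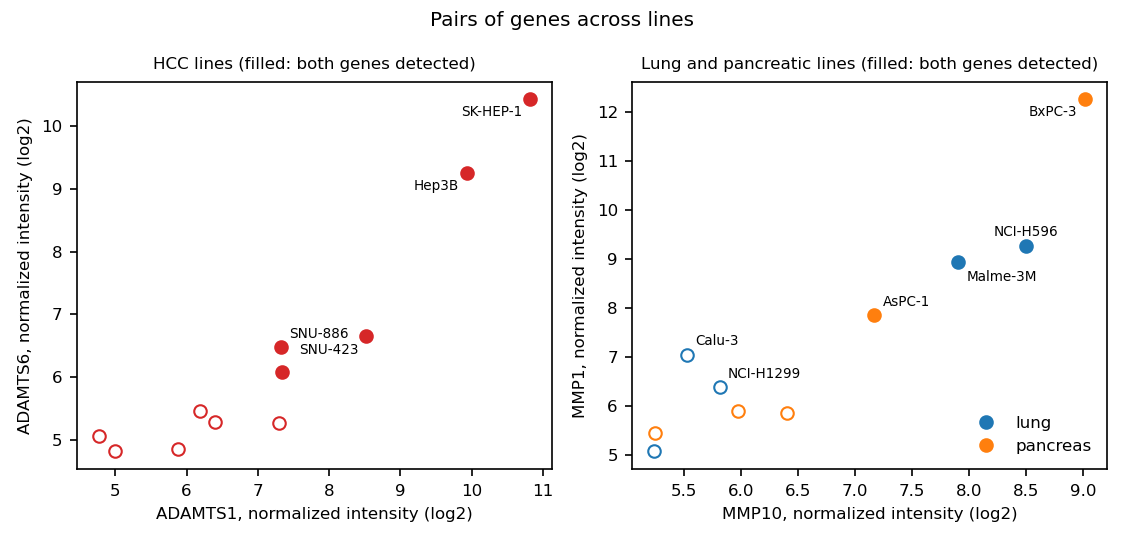
Normalized intensity (log2) of ADAMTS6 against ADAMTS1 in the 11 HCC lines (left) and of MMP1 against MMP10 in the 10 lung and pancreatic lines (right), 1 point a line, filled where both genes were detected. SK-HEP-1 and Hep3B were highest in both ADAMTS genes, and BxPC-3, NCI-H596, Malme-3M and AsPC-1 were the highest in MMP1 and MMP10.

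MMP11 was detected in 7 HCC lines, highest in PLC/PRF/5 at 7.90 (p 0), with a median of 6.63 and the lowest level 4.52 (p 0.84) in SNU-886. It was also the stromelysin detected in most lung and pancreatic lines, 8 of 10. Its lung levels ran 7.51 (p 0) in Calu-3, 5.42 (p 0.22) in NCI-H596, 7.35 (p 0) in NCI-H1299, 6.64 (p 0.01) in Malme-3M and 6.04 (p 0.04) in Calu-1. Its pancreatic levels ran 10.00 (p 0) in MIA-PaCa-2, 7.31 (p 0.01) in AsPC-1, 4.82 (p 0.85) in BxPC-3, 6.26 (p 0.03) in Capan-2 and 6.25 (p 0.02) in Capan-1. MIA-PaCa-2, which had the fewest detected members of these 10 lines, was the highest in MMP11, and BxPC-3, highest in MMP1, MMP3 and MMP10, was the lowest.

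Membrane-type MMPs act at the cell surface, and MMP14 is the main activator of proMMP2. All 6 were detected in at least 1 HCC line, and 3 of them, MMP14, MMP15 and MMP24, in at least 1 lung or pancreatic line. MMP14 was detected in 7 HCC lines, highest in Hep3B at 7.88 (p 0) and SK-HEP-1 at 7.78 (p 0), with a median of 5.64 and the lowest level 5.11 (p 0.14) in PLC/PRF/5. With median scaling it was not brightest in Hep3B. In lung lines it was 5.38 (p 0.27) in Calu-3, 5.87 (p 0.07) in NCI-H596, 6.55 (p 0.01) in NCI-H1299, 6.41 (p 0.02) in Malme-3M and 9.34 (p 0) in Calu-1. In pancreatic lines it was 5.53 (p 0.2) in MIA-PaCa-2, 6.48 (p 0.02) in AsPC-1, 8.28 (p 0) in BxPC-3, 6.56 (p 0.01) in Capan-2 and 5.47 (p 0.19) in Capan-1. Calu-1 and BxPC-3 were the highest of these. MMP15 varied little among HCC lines, from 6.01 (p 0.01) in SNU-739 to 7.86 (p 0) in SNU-423 with a median of 6.77. MMP24, a membrane-type protease best known from neurons, was highest in SNU-423 at 10.54 (p 0) and JHH-4 at 8.13 (p 0), with a median of 6.40, the lowest level 4.96 (p 0.3) in Hep3B and 8 HCC lines detected. Its lung levels were 6.83 (p 0.01) in Calu-3, 5.68 (p 0.11) in NCI-H596, 5.87 (p 0.07) in NCI-H1299, 5.75 (p 0.1) in Malme-3M and 6.06 (p 0.04) in Calu-1. Pancreatic lines had 5.38 (p 0.28) in MIA-PaCa-2, 5.76 (p 0.11) in AsPC-1, 5.44 (p 0.2) in BxPC-3, 5.48 (p 0.18) in Capan-2 and 5.69 (p 0.12) in Capan-1. MMP16 and MMP17 were each detected in 1 HCC line and MMP25 in 4, none of them above 6.36.

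The remaining MMPs were dim or rare in HCC lines. MMP19 was detected in 7 of them, with levels of up to 6.02 (p 0) in SK-HEP-1. MMP12, the macrophage elastase, was detected in SNU-739 and SNU-475. MMP28, or epilysin, was detected in SK-HEP-1 alone, at 5.32 (p 0.03), but in 6 of the lung and pancreatic lines. MMP23A is annotated as a transcribed pseudogene and is a near copy of MMP23B, so signals of both are uncertain; they were detected in 2 HCC lines each, and in 7 and 9 of the other lines.

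Of the ADAMTS proteases of large proteoglycans such as versican and aggrecan, ADAMTS1 was detected in 9 HCC lines and ADAMTS4 and ADAMTS9 in 8 each. ADAMTS1 was highest in SK-HEP-1 at 10.82 (p 0), Hep3B at 9.94 (p 0) and SNU-423 at 8.52 (p 0), with a median of 7.30 and the lowest level 4.77 (p 0.42) in PLC/PRF/5. ADAMTS6, known for its part in heart development in mice, had the same 3 lines highest, at 10.43 (p 0), 9.26 (p 0) and 6.65 (p 0). Its HCC median was 5.46 and its lowest level 4.81 (p 0.374) in SNU-475. The raw signal of ADAMTS6 was 1607 in SK-HEP-1 and 320.4 in Hep3B over control means of 176.3 and 167.0, and quantile normalization brought the weaker signals of the Hep3B array to the scale of the others.

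Across the 11 HCC lines r was 0.93 between ADAMTS1 and ADAMTS6, with rho of 0.93, and 0.84 without SK-HEP-1 and Hep3B. ADAMTS6 and MMP14 had r of 0.94, the highest of 190 pairs with a median of 0.06, but 0.53 without these 2 lines. ADAMTS1 and MMP14 had r of 0.90, and 0.69 without them. The lines share 1 normalization, and no test was made. THBS1, PLAU and PLAT, which were not members and were picked for their wide ranges from a list of 45 genes, were also highest in SK-HEP-1. In Hep3B, however, THBS1 was at its lowest of the HCC lines, 4.99.

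In the lung lines ADAMTS1 was 5.53 (p 0.2) in Calu-3, 5.73 (p 0.1) in NCI-H596, 5.90 (p 0.06) in NCI-H1299, 9.37 (p 0) in Malme-3M and 10.24 (p 0) in Calu-1. In the pancreatic lines it was 5.42 (p 0.25) in MIA-PaCa-2, 5.09 (p 0.55) in AsPC-1, 10.27 (p 0) in BxPC-3, 7.72 (p 0) in Capan-2 and 5.33 (p 0.24) in Capan-1. Levels fell apart into lines near background and lines from 7.72 to 10.27, which belonged to both tissues. ADAMTS6 had lung levels of 5.84 (p 0.1) in Calu-3, 5.70 (p 0.1) in NCI-H596, 6.82 (p 0.01) in NCI-H1299, 5.09 (p 0.5) in Malme-3M and 6.37 (p 0.02) in Calu-1. Pancreatic levels of ADAMTS6 were 5.49 (p 0.21) in MIA-PaCa-2, 5.55 (p 0.19) in AsPC-1, 6.75 (p 0.01) in BxPC-3, 5.97 (p 0.06) in Capan-2 and 7.12 (p 0.01) in Capan-1. ADAMTS9 was highest among HCC lines in JHH-6 at 8.55 (p 0) and JHH-4 at 8.04 (p 0), with a median of 6.87 and the lowest level 4.68 (p 0.53) in Huh-1. Its lung levels were 7.32 (p 0) in Calu-3, 5.06 (p 0.53) in NCI-H596, 4.83 (p 0.84) in NCI-H1299, 4.97 (p 0.67) in Malme-3M and 5.02 (p 0.55) in Calu-1. The pancreatic lines had 4.72 (p 0.97) in MIA-PaCa-2, 4.98 (p 0.67) in AsPC-1, 5.06 (p 0.53) in BxPC-3, 4.84 (p 0.83) in Capan-2 and 8.83 (p 0) in Capan-1. One line of each tissue, Calu-3 and Capan-1, carried its signal.

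Other ADAMTS genes were detected in fewer lines or at lower levels. ADAMTS4, an aggrecanase, reached no more than 6.37 (p 0.01) in the HCC lines. ADAMTS19 was detected in 5, highest in Hep3B at 7.80 (p 0.01). With median scaling ADAMTS19 was brightest in another HCC line, and its range was 1.27 log2 instead of 2.79. ADAMTS13, the protease of von Willebrand factor made by the liver, was detected in Huh-1 alone, at 5.21 (p 0.02), against 5.12 (p 0.0967) in SNU-475 and 4.73 (p 0.51) in PLC/PRF/5, the other line with all 9 hepatocyte markers. Of the procollagen N-proteinases ADAMTS2, ADAMTS3 and ADAMTS14, ADAMTS3 was detected in 2 lines of each set and ADAMTS2 in Capan-2 alone.

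Of the inhibitors, TIMP1 was detected in all 21 lines and TIMP2 in all but AsPC-1. In HCC lines TIMP1 was lowest in Huh-1 at 10.42 (p 0), had a median of 13.42 and was highest in SNU-423 at 14.56 (p 0). TIMP2, which also takes part in activating proMMP2, was likewise lowest in Huh-1 at 7.16 (p 0), with a median of 10.71, and highest in SNU-423 at 11.89 (p 0). Huh-1 and PLC/PRF/5, the lines with all hepatocyte markers, had the lowest TIMP2, with 8.72 (p 0) in PLC/PRF/5. Over the 11 HCC lines r between TIMP1 and TIMP2 was 0.79 and rho 0.87, and r was 0.89 without Hep3B and 0.71 without the 2 lines farthest out in TIMP1.

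TIMP1 in the lung lines was 14.11 (p 0) in Calu-3, 13.72 (p 0) in NCI-H596, 14.60 (p 0) in NCI-H1299, 14.35 (p 0) in Malme-3M and 14.15 (p 0) in Calu-1. In the pancreatic lines it was 15.33 (p 0) in MIA-PaCa-2, 14.81 (p 0) in AsPC-1, 14.89 (p 0) in BxPC-3, 13.49 (p 0) in Capan-2 and 13.70 (p 0) in Capan-1. TIMP2 in the lung lines was 9.68 (p 0.02) in Calu-3, 9.57 (p 0.01) in NCI-H596, 11.45 (p 0.04) in NCI-H1299, 11.66 (p 0.01) in Malme-3M and 12.02 (p 0.03) in Calu-1. The pancreatic lines had 12.78 (p 0) in MIA-PaCa-2, 12.90 (p 0.1) in AsPC-1, 9.70 (p 0.02) in BxPC-3, 9.28 (p 0.01) in Capan-2 and 9.94 (p 0.03) in Capan-1. TIMP2 missed detection in AsPC-1 although its level there was the highest of the 10 lines, so this detection call is doubtful.

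TIMP3, which stays bound to the extracellular matrix, was detected in 5 HCC lines. It was highest in SNU-739 at 8.67 (p 0), Hep3B at 8.03 (p 0) and SK-HEP-1 at 7.91 (p 0), with a median of 5.43 and the lowest level 4.62 (p 0.67) in SNU-423, the line highest in TIMP1 and TIMP2. Its lung levels were 10.20 (p 0) in Calu-3, 9.06 (p 0) in NCI-H596, 4.95 (p 0.68) in NCI-H1299, 4.94 (p 0.71) in Malme-3M and 5.07 (p 0.52) in Calu-1. Its pancreatic levels were 4.94 (p 0.72) in MIA-PaCa-2, 5.18 (p 0.43) in AsPC-1, 9.71 (p 0) in BxPC-3, 6.43 (p 0.01) in Capan-2 and 4.81 (p 0.88) in Capan-1. Calu-3, NCI-H596 and BxPC-3 were high and the other lines but Capan-2 undetected. Over these 10 lines TIMP3 and TIMP2 had r of -0.68, the lowest of 153 pairs, and rho of -0.55. TIMP3 was detected in only 4 of these lines, and no test was made. TIMP4 was detected in 3 HCC lines, JHH-6 at 8.62 (p 0), SNU-886 at 8.14 (p 0) and SNU-475 at 6.78 (p 0.00527), with a median of 5.08 and the lowest level 4.73 (p 0.44) in Huh-1. Lung levels of TIMP4 were 8.93 (p 0) in Calu-3, 7.55 (p 0) in NCI-H596, 4.96 (p 0.67) in NCI-H1299, 6.10 (p 0.03) in Malme-3M and 6.35 (p 0.02) in Calu-1. Pancreatic levels of TIMP4 were 5.19 (p 0.42) in MIA-PaCa-2, 8.46 (p 0) in AsPC-1, 6.08 (p 0.05) in BxPC-3, 4.99 (p 0.6) in Capan-2 and 7.42 (p 0) in Capan-1.

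**Figure D4:**
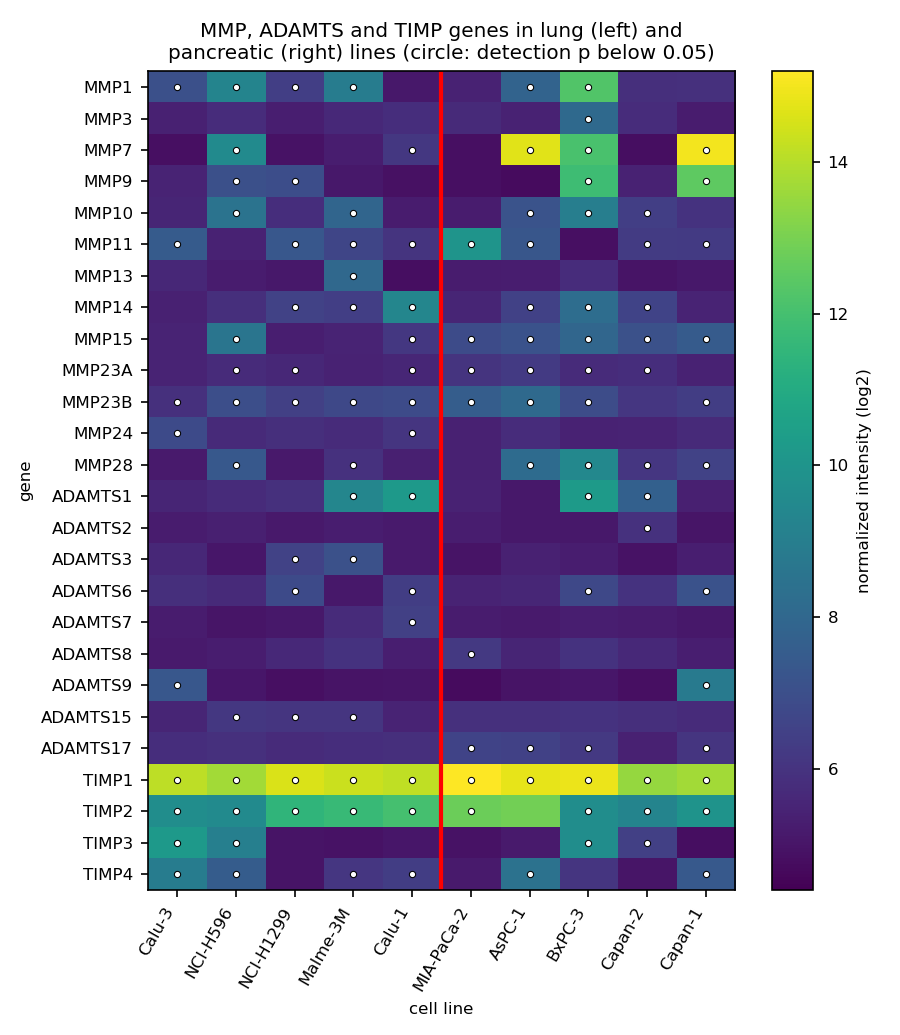
Normalized intensity (log2, colour scale) of the 26 genes detected in at least 1 of the 5 lung or 5 pancreatic lines, with genes as rows, lines as columns and a circle where the detection p was under 0.05. MMP7 was above 12 in AsPC-1, BxPC-3 and Capan-1, MMP9 above 11 in BxPC-3 and Capan-1, and TIMP1 above 13 in all lines.

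Lung and pancreatic lines were compared with limma over all 17119 genes detected in at least 3 of the 10 lines, with Benjamini-Hochberg adjustment over all of them at a threshold of 0.05. Of the 47 members 18 were tested and 0 passed; of all genes 1 did (0.00584%). The limma p was under 0.05 without adjustment for 0 of the 18 members and 3.64% of all genes. With 1 line left out it was under 0.05 for 2 members in 3 cases, MMP15 and MMP28 without NCI-H596, MMP7 and MMP28 without MIA-PaCa-2, and MMP7 and ADAMTS17 without Capan-2. Of all genes tested, 4.97%, 4.18% and 4.89% were under 0.05 in these 3 cases, in the same order. With any other line left out it was 0 members. The lines of the tissues did not overlap for 0 of the 18 members and 0.613% of all genes. Without NCI-H596 this count was 1 member (MMP15) beside 1.72% of all genes, and without Capan-2 it was 1 (ADAMTS17) beside 1.51%. The difference, lung minus pancreas, was above 0 for 4 of the 18 members and for 50.3% of all genes, and its median was -0.23 log2 against 0.00 over all genes. With no filter on detection it was above 0 for 19 of 47 members and 48.7% of all genes, with a median of -0.032 log2 over members. Each line was read once, so the spread is that between lines and holds no repeat arrays.

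MMP15, MMP7, MMP28, MMP23A and ADAMTS17 had the smallest unadjusted p, and the pancreatic mean was the higher in all 5. MMP15 was 5.50 (p 0.22) in Calu-3, 8.58 (p 0) in NCI-H596, 5.29 (p 0.27) in NCI-H1299, 5.48 (p 0.18) in Malme-3M and 6.13 (p 0.04) in Calu-1. In pancreatic lines it was 6.85 (p 0.01) in MIA-PaCa-2, 7.14 (p 0.01) in AsPC-1, 7.98 (p 0) in BxPC-3, 7.10 (p 0) in Capan-2 and 7.52 (p 0) in Capan-1. It was thus detected in every pancreatic line and in 2 lung lines, but NCI-H596 was the highest of all 10. Lung lines had a mean of 6.20 ± 1.37 and pancreatic lines of 7.32 ± 0.44 (SD, n = 5 each), a limma difference of -1.12 log2 (SE 0.59, adjusted p 0.99987). For MMP7 the lung mean was 6.16 ± 1.98 and the pancreatic mean 10.3 ± 5.13 (SD, n = 5 each), and the limma difference was -4.14 log2 (SE 2.18, adjusted p 0.99987). The difference was smaller than the SD of the pancreatic lines, and 3 lung and 2 pancreatic lines were undetected. It was -2.96 log2 without Capan-1 and -5.51 without Capan-2.

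MMP28 was 5.18 (p 0.43) in Calu-3, 7.39 (p 0) in NCI-H596, 5.12 (p 0.48) in NCI-H1299, 5.96 (p 0) in Malme-3M and 5.34 (p 0.21) in Calu-1. Its pancreatic levels were 5.37 (p 0.28) in MIA-PaCa-2, 8.17 (p 0) in AsPC-1, 9.43 (p 0) in BxPC-3, 6.13 (p 0) in Capan-2 and 6.54 (p 0.01) in Capan-1. The limma difference was -1.33 log2 (SE 0.77, adjusted p 0.99987), with a lung mean of 5.80 ± 0.95 and a pancreatic mean of 7.13 ± 1.64 (SD, n = 5 each). MMP28 and MMP15 had r of 0.73 and rho of 0.87 over the 10 lines. MMP23A had lung levels of 5.47 (p 0.07) in Calu-3, 5.75 (p 0.01) in NCI-H596, 5.59 (p 0.01) in NCI-H1299, 5.45 (p 0.05) in Malme-3M and 5.57 (p 0.02) in Calu-1. Its pancreatic levels were 6.02 (p 0.02) in MIA-PaCa-2, 6.26 (p 0) in AsPC-1, 5.71 (p 0.01) in BxPC-3, 5.83 (p 0) in Capan-2 and 5.44 (p 0.09) in Capan-1, and the limma difference was -0.29 log2 (SE 0.20, adjusted p 0.99987).

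ADAMTS17 was detected in 4 pancreatic lines and no lung line. Its lung levels were 5.83 (p 0.1) in Calu-3, 5.90 (p 0.07) in NCI-H596, 5.71 (p 0.11) in NCI-H1299, 5.81 (p 0.09) in Malme-3M and 5.86 (p 0.07) in Calu-1. Its pancreatic levels were 6.57 (p 0.02) in MIA-PaCa-2, 6.48 (p 0.02) in AsPC-1, 6.18 (p 0.04) in BxPC-3, 5.41 (p 0.21) in Capan-2 and 6.07 (p 0.04) in Capan-1. Capan-2 lay below every lung line. The limma difference was -0.32 log2 (SE 0.23, adjusted p 0.99987), and since undetected lines of both tissues enter it, no fold is given. ADAMTS15 was detected in 3 lung lines and no pancreatic line, but its level did not exceed the detection limit enough to give a fold.

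After MMP7 the largest of the 18 differences was that of MMP9, with a lung mean of 5.88 ± 1.02 and a pancreatic mean of 7.87 ± 3.95 (SD, n = 5 each), with a limma difference of -1.99 log2 (SE 1.62, adjusted p 0.99987). It was -0.83 without Capan-1 and -0.998 without BxPC-3, the lines with high MMP9. The largest difference towards lung was that of TIMP3, 0.63 log2 (SE 1.31). TIMP1 differed by -0.26 log2 (SE 0.37), TIMP2 by -0.04 (SE 0.85) and MMP1 by -0.12 (SE 1.33). Adjusted p was 0.99987 for all 18 tested members. With 5 lines a tissue and SDs of up to 5.13 log2, these data do not show that the tissues are alike in these genes.

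**Figure D5:**
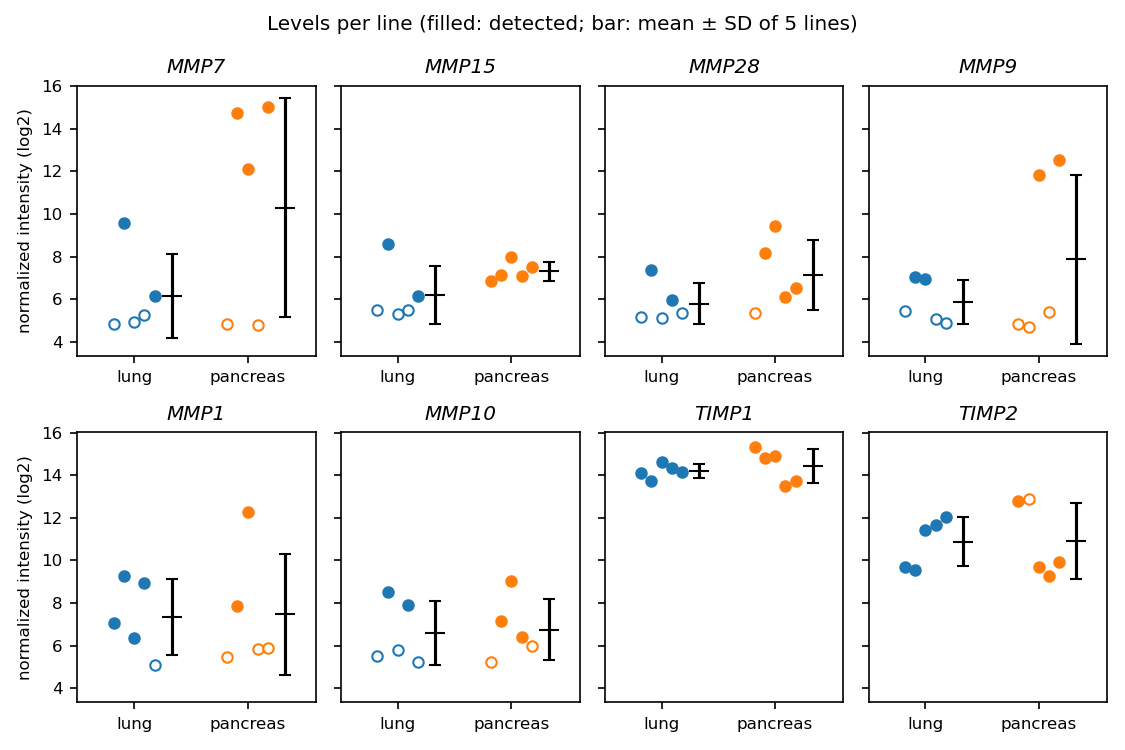
Normalized intensity (log2) of 8 genes in the 5 lung and 5 pancreatic lines, 1 point a line, filled where detected, with the mean and SD of each tissue as a bar beside the points. The tissues overlap in all 8 panels, and in MMP7 and MMP9 the pancreatic lines lie either above 11 or below 6.

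A list of 45 genes that act with these proteases, made up of further inhibitors, activators, ADAM proteases, plasminogen activators, cathepsins, substrates and transcription factors, was described alongside. In HCC lines 44 of the 45 were detected at least once, where 59.6% of all genes were, and 27 of these had a range of at least 3 log2, where 30.8% of all detected genes did. In lung and pancreatic lines 42 were detected and 24 had such a range, beside 61% and 22% of all genes. Of the 37 tested, 0 passed in the limma comparison of lung with pancreas, 23 were higher in lung, and the median difference was 0.05 log2, beside 0.00584% passing and 50.3% higher in lung over all genes. THBS1, thrombospondin, had the widest HCC range, from 4.99 in Hep3B to 14.67 in SK-HEP-1. PLAU, urokinase, which activates plasminogen, ran from 4.91 in Huh-1 to 14.06 in SK-HEP-1, and PLAT, the tissue-type activator, from 4.48 to 13.31 in the same lines. In the other set PLAU ran from 5.80 in Capan-2 to 15.30 in NCI-H596. SERPINB2, an inhibitor of urokinase, ran from 5.11 in MIA-PaCa-2 to 13.98 in BxPC-3, the line also highest in MMP1, MMP3 and MMP10. PLAT ran from 5.19 in Capan-2 to 13.80 in Capan-1.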

How the data were processed

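The authors processed the arrays in BeadStudio, per the submitters' processing notes; the sources used here do not give its version, the summary of probes or any background subtraction. In the raw tables the deposited intensity is the average bead signal of each gene, per the file headers, with the deposited detection p-value in the next column. The authors also deposited normalized intensity values by a method not stated, used as an alternative. SNU-475 has a raw table of its own.

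From these, background was removed by normexp in limma 3.58.1 (R 4.3.3). Its control mean and SD came from a regression of signal medians on detection p. An offset of 16 was added, and the 11 HCC arrays and the 10 lung and pancreatic arrays were quantile normalized apart and taken to log2. Genes detected (p under 0.05) in at least 3 of 10 lines were tested with limma (lmFit and eBayes), after a check on simulated data. In that check the SD of each gene was capped at the median SD of the tested genes. It therefore does not show how the test performs for the members that varied most. The number of arrays, 1 a line, limits the precision. Python 3.11.15 with pandas 2.3.3 counted and drew.

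Of the 47 members, 40 had a listed accession found in RefSeq on the lung and pancreatic arrays, all with the same symbol. Members named with values in every line had a range of at least 3 log2 in either set, were TIMPs, or had one of the 5 smallest limma p. Members, lists and rules were chosen with earlier results of these data known. Alternatives were another normalization, background correction, offset, filter, the deposited processed values and left-out lines. Replicate numbers follow accession order and pair nothing.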

Additional observations from a re-analysis of the deposited data

Results flagged for a closer look

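Within a tissue, 43 sets of 5 lines, 1 for each member detected in that tissue, were searched for a line far from the other 4, by Dixon's criterion at its 95% critical ratio of 0.71. In 7 of them (16.3%) the highest line stood apart, and the same held for a line in 11.1% of 38869 such sets over all genes. Chance flags about 1 in 20 sets that were not selected, but a member detected in 1 line alone entered through that line, as 5 of the 7 did, so that rate does not apply here. In lung lines, ADAMTS9 was 7.32 in Calu-3 and 4.83 to 5.06 in the others. MMP13 was 8.04 in Malme-3M and 4.79 to 5.60 in the others. NCI-H596 stood apart in MMP15, at 8.58 against 5.29 to 6.13, and in MMP7, at 9.57 against 4.85 to 6.15. In pancreatic lines, ADAMTS9 was 8.83 in Capan-1 and 4.72 to 5.06 in the others. MMP3 was 8.08 in BxPC-3 and 5.24 to 5.75 elsewhere. ADAMTS2 was 5.94 in Capan-2 and 5.03 to 5.27 elsewhere, a level close to the detection limit.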

How the results depend on the processing

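In the comparison of lung with pancreas, 0 members passed limma's adjusted threshold under every alternative run. Without Calu-3, Capan-2 and Malme-3M the tissues did not overlap for 1 member (ADAMTS17), beside 5.51% of all genes. These 3 lines were picked for the markers or origin given above, but other lines without detected CDH1 were kept. With 1 line left out the tissues did not overlap for 0 to 1 member. The 1 was MMP15 without NCI-H596, beside 1.72% of all genes, and ADAMTS17 without Capan-2, beside 1.51%. With all 10 lines the share of all genes was 0.613%. The median difference stayed below 0 in every alternative, between -0.47 and -0.16 with 1 line left out. Differences of 10 members crossed 0 when 1 line was left out: ADAMTS1 ran from -0.13 to 1.47, ADAMTS6 from -0.43 to 0.026, ADAMTS15 from -0.041 to 0.085, MMP1 from -0.63 to 1.08, MMP10 from -0.65 to 0.40, MMP11 from -0.86 to 0.43, MMP14 from -0.41 to 0.70, TIMP2 from -0.45 to 0.46, TIMP3 from -0.21 to 1.50 and TIMP4 from -0.19 to 0.86. MMP9 ran from -2.78 to -0.83 and MMP7 from -5.51 to -2.96. Without those 3 lines, ADAMTS6 turned to 0.071 and TIMP4 to -0.50. ADAMTS15 turned to 0.014 with median scaling and 0.0017 with an offset of 50. The count of members with a range of at least 3 log2 fell to 8 in HCC lines and 7 in the others with no background correction, and to 8 and 7 in the deposited processed values; the cause was not tested, and these alternatives for the range were chosen after seeing the data. With detection at p under 0.01, 23 members were detected in HCC lines and 18 in the others. The share of all genes at this threshold was not counted, so the fall is not read as a trait of the members. Limma's own control fit compressed each lung and pancreatic array to 0.0312 log2, so that alternative tests little. No paired analysis was possible because the lines are unrelated and the replicate numbers used here only follow accession order. Genes near background have only bounds, Hep3B most of all, and 1 array a line leaves array error unmeasured.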

Other observations

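Some members missed the detection threshold although their level lay above the median of genes listed with a detection p of 0.05 on the same array. In HCC lines these were MMP7 in Hep3B, MMP9 in PLC/PRF/5, MMP28 in SNU-475, ADAMTS19 in Huh-1 and MMP23B in HLF, SNU-739 and SNU-423. In the other lines they were TIMP2 in AsPC-1 and MMP23B and MMP25 in Capan-2. The brightest HCC line was the same for 29 of the 33 detected members with median scaling and for 31 in the deposited processed values, with MMP14, MMP11, MMP25 and ADAMTS19 differing under the former and MMP16 and MMP23B under the latter.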
